A study of Homo sapiens with 6 samples.

Results

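Replacement histone variants are histones that stand in for the canonical histones of the nucleosome, and most of them are made from ordinary polyadenylated mRNA. The set described here holds 9 genes that encode such variants or have polyadenylated transcripts (H2AZ1, H2AZ2, H2AX, H2AJ, MACROH2A1, MACROH2A2, H3-3A, H3-3B and H1-10). They were chosen by name from the 60656 genes of the count table, and all 9 had enough counts to be tested. The rule itself used no measured value, but earlier results of these data were known when the genes were chosen. RNA was measured in parental ZR-75-1 cells, an oestrogen receptor-positive human breast cancer line, in 3 libraries from cells given DMSO and 3 from cells given 500 nM abemaciclib, an inhibitor of the cyclin-dependent kinases CDK4 and CDK6, each for 4 days. Both groups came from the unmodified line, so the results describe 1 cell line at 1 dose and 1 time. RB1 knockout cells, which the study also profiled, were not analysed here. The study describes the replicates of its cell line RNA-seq as independent cultures, so the tests measure the spread between cultures of this line.

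Canonical histone genes lie in clusters, are transcribed mainly in S phase, and end their mRNA in a stem-loop in place of a poly(A) tail. Variant histones can be deposited outside S phase by their own chaperones. H2A.Z sits in the nucleosomes beside active promoters and enhancers, H2A.X is phosphorylated around DNA breaks, H3.3 fills transcribed chromatin and telomeres, macroH2A marks silent chromatin such as the inactive X chromosome, and H1.10 is a linker histone that binds between nucleosomes. In oestrogen receptor-positive breast cancer cells, H2A.Z is known at oestrogen-responsive promoters. CDK4 and CDK6 inhibitors hold RB-competent cells in G1 through RB, so the comparison asks how the variant transcripts stand in cells held out of the cycle.

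The libraries held 3317860 to 4013156 counts on genes. The library kit reads the 3′ end of polyadenylated RNA, so a value is a count of transcript ends and carries no length term. Levels are given as CPM, counts scaled to the library total and by TMM, and a count of 0 in a library allows a level of up to 0.740 to 0.909 CPM, depending on the library (3 counts, counting error only). MKI67, the proliferation antigen Ki-67, averaged 526 ± 31.4 CPM with DMSO and 5.00 ± 2.28 with abemaciclib (SD, n = 3 each). All 9 luminal epithelial markers were detected, including ESR1, GATA3, FOXA1 and KRT8, and their summed level was 7565 to 8045 CPM with DMSO and 8568 to 9571 CPM with abemaciclib. They did not move together: ESR1 (211 to 373 CPM) and KRT19 (3131 to 4280 CPM) were called higher, and PGR (103 to 53.3 CPM) and KRT18 (689 to 543 CPM) lower, by the test given for the variants. The 3 basal markers were at 0 in every library, as were 3 of 4 leukocyte, 2 of 3 endothelial and 2 of 4 fibroblast markers. The fibroblast sum, nearly all COL1A1, was 10.4 to 15.8 CPM with DMSO and 10.1 to 15.4 CPM with abemaciclib. Abemaciclib replicate 3 stood farther from the other 2 abemaciclib libraries (a chi-square of 7.00 and 7.43 per degree of freedom over genes) than they stood from each other (3.47), and without it the same number of variants, 7, was called lower.

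With abemaciclib, 7 of the 9 variant genes were lower and none was higher (edgeR's quasi-likelihood test, two-sided, with Benjamini-Hochberg adjustment across all 10863 genes in the fit and a call at an adjusted p under 0.05). The 2 that did not pass were H3-3A and MACROH2A1, and the median log2 fold change of the 9 was −0.79, beside −0.00 over all genes tested. Over all genes tested, 25.7% were called, 13.3% as lower and 12.5% as higher. The falls were of very different size: H1-10 and H2AX dropped to 20.02% and 20.7% of their DMSO level, H2AZ2 to 37.7%, H2AZ1 to 50.0%, H3-3B to 57.7%, MACROH2A2 to 61.3% and H2AJ to 78.7%. In 8 of the 9 genes, no abemaciclib library overlapped with a DMSO library, which was the case for 39.1% of all genes tested. The summed level of all 9 genes was 2978 ± 70.1 CPM with DMSO and 1520 ± 44.3 CPM with abemaciclib (SD, n = 3), 51.0% of the DMSO level. In these bulk samples, a lower share of RNA in every cell and a smaller number of cells that make the transcript cannot be told apart.

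**Figure D1:**
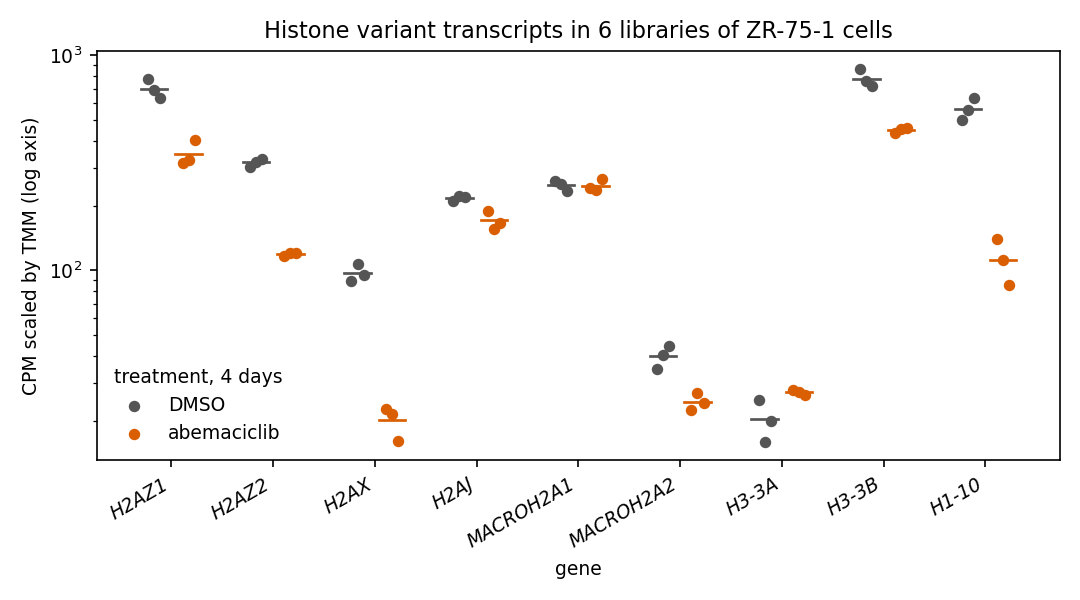
Level of each variant transcript in CPM scaled by TMM on a log axis, with 1 point per library and a line at the mean of the 3 libraries of a group. H2AX and H1-10 show the widest gaps between the DMSO points (grey) and the abemaciclib points (orange), MACROH2A1 shows overlapping points, and H3-3A is the only gene with all abemaciclib points above all DMSO points.

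The H2A.Z genes were both lower. H2AZ1 (chr4:99948086-99950355 in GRCh38, minus strand) and H2AZ2 (chr7:44826791-44848087, minus strand) encode nearly identical H2A.Z proteins from separate loci. H2AZ1 stood at 773, 686 and 632 CPM in the DMSO libraries and at 316, 326 and 404 CPM in the abemaciclib libraries. Every abemaciclib library lay below every DMSO library, with replicate 3 the highest of its group. The log2 fold change was −1.0005 (SE 0.10, 95% interval −1.21 to −0.79, adjusted p = 1.59e-08). H2AZ2 stood at 303, 320 and 330 CPM with DMSO and at 116, 121 and 121 CPM with abemaciclib. Its spread was narrow in both groups, 317.5 ± 13.2 and 119.6 ± 2.67 CPM (SD, n = 3), and the log2 fold change was −1.41 (SE 0.10, interval −1.61 to −1.20, adjusted p = 6.98e-12). The 2 genes together fell from 1015 ± 58.0 to 468 ± 50.1 CPM, 46.1% of the DMSO level.

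Because reads from close copies can be shared, the last 400 bases of each variant transcript were cut into 13 windows of 100 bases and searched against the genome. In H2AZ1, 4 of 13 windows had 1 other locus with at most 2 differences, and in H2AZ2 none had. The 8 annotated H2A.Z pseudogenes together held 0 or 1 count in each library.

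H2AX and H2AJ encode H2A proteins that differ from canonical H2A mainly in their C-terminal tails. H2AX (chr11:119093874-119095465, minus strand, a single exon) carries the serine that ATM and related kinases phosphorylate at DNA breaks. It stood at 89.0, 107 and 95.1 CPM with DMSO and at 22.7, 21.5 and 16.2 CPM with abemaciclib. The abemaciclib libraries lay far below the DMSO libraries, and replicate 3 was the lowest. The log2 fold change was −2.27 (SE 0.16, interval −2.60 to −1.94, adjusted p = 5.90e-12), a 4.82-fold lower mean. H2AJ (chr12:14774405-14778002, plus strand), a variant known to accumulate in senescent fibroblasts, stood at 211, 222 and 219 CPM with DMSO and at 190, 156 and 167 CPM with abemaciclib. The groups did not overlap, but the gap was small, and the log2 fold change was −0.35 (SE 0.10, interval −0.56 to −0.13, adjusted p = 0.0139). The call on H2AJ was lost without DMSO replicate 2 (−0.33, adjusted p = 0.0673) and without abemaciclib replicate 2 (−0.28, adjusted p = 0.0972), and adjusted p ranged from 0.00601 to 0.0972 over all alternatives.

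The 2 macroH2A genes differed from each other. MACROH2A1 (chr5:135334381-135399914, minus strand), a histone with a large C-terminal macro domain, stood at 260, 253 and 234 CPM with DMSO and at 241, 237 and 265 CPM with abemaciclib. The groups overlapped, and the log2 fold change was −0.01 (SE 0.10, adjusted p = 0.966). Its 95% interval, −0.21 to 0.19, leaves out the estimated change of each of the 7 genes called lower. It does overlap the interval of H2AJ, −0.56 to −0.13. The counts do not separate the splice forms macroH2A1.1 and macroH2A1.2, whose ratio was therefore not measured. MACROH2A2 (chr10:70052544-70112282, plus strand) stood at 34.8, 40.7 and 44.5 CPM with DMSO and at 22.4, 26.9 and 24.3 CPM with abemaciclib. Every abemaciclib library was lower, and the log2 fold change was −0.70 (SE 0.18, interval −1.08 to −0.33, adjusted p = 0.00500). The last bases of MACROH2A2 overlap AIFM2 on the opposite strand by 13 bases, and AIFM2 itself held 7 to 24 counts in a library. The sum of both macroH2A genes was 289.2 ± 8.94 CPM with DMSO and 272.4 ± 14.7 CPM with abemaciclib, 94.2% of the DMSO level.

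H3-3A and H3-3B encode the same H3.3 protein from 2 loci. H3-3B (chr17:75776434-75785893, minus strand) stood at 859, 757 and 719 CPM with DMSO and at 436, 453 and 458 CPM with abemaciclib. The groups were well apart, and the log2 fold change was −0.79 (SE 0.09, interval −0.98 to −0.60, adjusted p = 1.28e-07). H3-3A (chr1:226061851-226072019, plus strand) stood at 24.9, 16.04 and 19.99 CPM with DMSO and at 27.8, 27.1 and 26.5 CPM with abemaciclib. These values rest on 54 to 110 counts per library. All 3 abemaciclib libraries were above the DMSO libraries, but the difference did not pass the test (log2 fold change 0.42, SE 0.21, interval −0.02 to 0.85, adjusted p = 0.156). In H3-3A, 12 of 13 windows at the 3′ end had up to 4 other loci with at most 2 differences, whereas H3-3B had none. The 47 annotated H3 pseudogenes with a symbol of H3P and a number held 43, 21 and 16 counts with DMSO and 13, 32 and 44 with abemaciclib. The sources used here do not state how reads with several matches were counted, so the level of H3-3A is uncertain, and the part of read sharing in its difference was not tested. Both H3.3 genes together fell from 798.6 ± 76.0 to 476.1 ± 10.6 CPM, 59.6% of the DMSO level. Most of that sum is H3-3B, and the limit on H3-3A applies to it.

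H1-10 (chr3:129314771-129316286, minus strand, a single exon) showed the lowest log2 fold change of the 9. It stood at 501, 554 and 629 CPM with DMSO and at 140, 112 and 85.7 CPM with abemaciclib. The spread was wide in both groups but small beside the gap between them. The log2 fold change was −2.32 (SE 0.13, interval −2.59 to −2.06, adjusted p = 2.81e-14), a 5.00-fold lower mean. Leaving out 1 library at a time gave −2.51 to −2.16. None of its windows at the 3′ end had another locus, which was also the case for H2AX, H2AJ, MACROH2A1 and MACROH2A2.

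**Figure D2:**
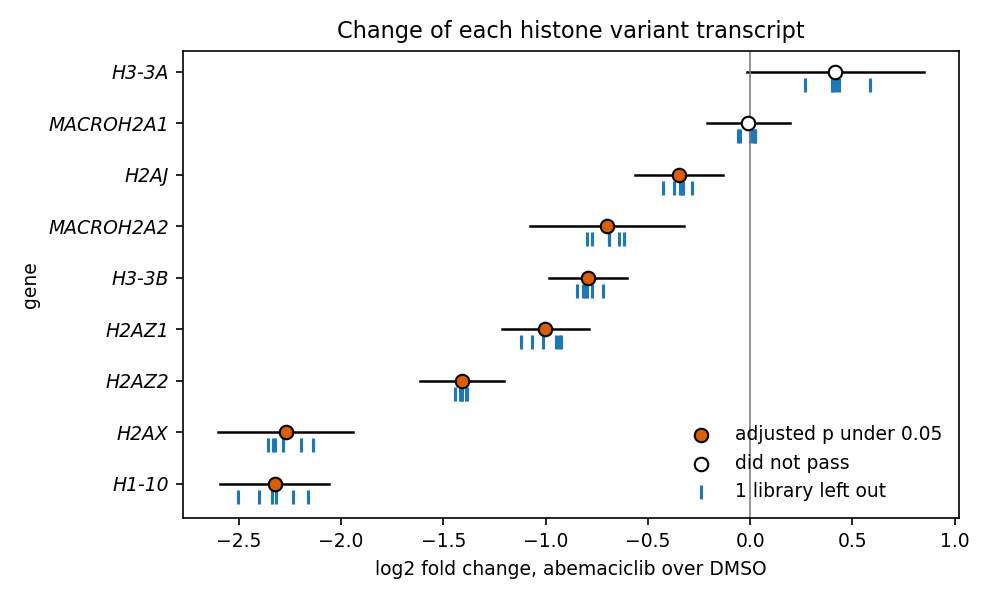
Log2 fold change of each variant transcript, abemaciclib over DMSO, with bars for the 95% interval of the fit and blue ticks for the values with 1 library left out. H1-10 and H2AX sit near −2.3, H2AJ is the called gene nearest to 0, and the intervals of MACROH2A1 and H3-3A include 0.

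Since genes of a pair encode the same or related proteins, the share of each pair was also taken within a library, which does not depend on the scaling of libraries. With 3 libraries against 3, the exact permutation test cannot give a p below 0.1, and all 4 pairs gave 0.1 (two-sided, adjusted p = 0.1 over the 4), with no overlap between groups. H2AZ1 made up 71.8%, 68.2% and 65.7% of the H2A.Z counts with DMSO and 73.0%, 72.9% and 77.0% with abemaciclib. The exact (Clopper-Pearson) 95% interval of DMSO replicate 1 was 70.3% to 73.3%. It overlapped those of abemaciclib replicate 1, 70.7% to 75.3%, and replicate 2, 70.8% to 74.9%. H3-3A made up 2.82%, 2.08% and 2.71% of the H3.3 counts with DMSO and 6.00%, 5.66% and 5.47% with abemaciclib. The difference of the log2 ratio of H3-3A to H3-3B was 1.23, and the limit on H3-3A given above applies to it.

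MACROH2A1 made up 88.2%, 86.1% and 84.0% of the macroH2A counts with DMSO and 91.5%, 89.8% and 91.6% with abemaciclib, a difference of 0.69 in the log2 ratio. The exact 95% interval of DMSO replicate 1, 86.1% to 90.1%, overlapped that of every abemaciclib library. The interval of DMSO replicate 2, 83.8% to 88.2%, overlapped that of abemaciclib replicate 2, 87.8% to 91.6%. H2AX made up 29.7%, 32.5% and 30.3% of the counts of H2AX and H2AJ with DMSO and 10.7%, 12.1% and 8.86% with abemaciclib. The log2 ratio of H2AX to H2AJ was 1.93 lower (difference −1.93), the widest shift of the 4 pairs. Intervals of this kind are taken within a library, so they cover counting error only and not the spread between cultures. The reads carry no stated molecular identifiers, so repeated copies of a molecule could not be told apart.

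**Figure D3:**
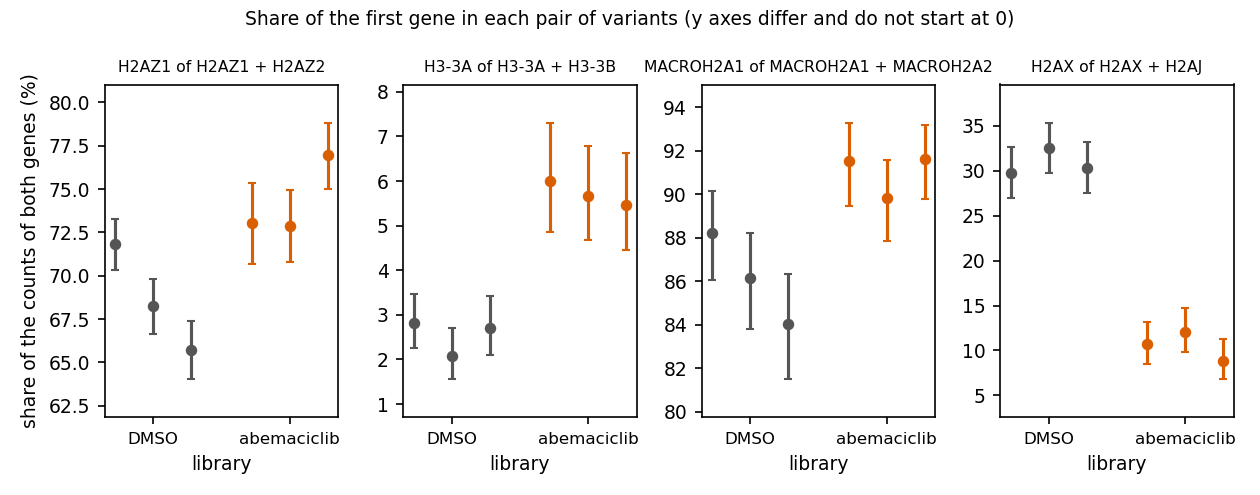
Share of the first gene in the summed counts of 2 related variants, in percent, with 1 point per library and bars for the exact 95% interval of counting error. The y axes differ between panels and do not start at 0. In each panel the 3 abemaciclib points (orange) lie apart from the 3 DMSO points (grey), by the most in H2AX with H2AJ. Some bars overlap between the groups in the panels of H2AZ1 and MACROH2A1.

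The upstream sequence of the genes was read from RefSeq (GRCh38.p14), which held an entry for all 9, as the 250 bases before the transcription start. It was searched on both strands for 3 elements known from cell cycle genes: the E2F site (TTTCCCGC, TTTGGCGC or TTTCGCGC), the cell cycle genes homology region or CHR (TTTGAA or TTCGAA), which the DREAM and B-MYB complexes can bind, and the CCAAT box, which NF-Y can bind. The motifs share no letters at the matches found. None of the 9 had these letters of an E2F site, which 2.31% of 34943 promoters of the same length had. A CHR was found in H2AX, from 164 to 159 bases before the start on the opposite strand. H2AZ2 had a CHR from 50 to 45 bases before the start, as TTCGAA, which reads the same on both strands. Of all promoters, 14.4% had a CHR. A CCAAT box was found in 6 of the 9 and in 32.0% of all promoters: 4 in each of H2AX, H2AZ2 and H3-3B, 3 in each of H2AZ1 and H2AJ, and 1 in H3-3A. H2AX and H2AZ2 had both elements, as did 5.07% of all promoters. H1-10, MACROH2A1 and MACROH2A2 had none of the 3. RefSeq listed 4 starts for H3-3A and 2 for MACROH2A1, and only the start of the annotated transcript was searched. A match of letters is a description and no sign that a factor binds there.

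The promoters below span the range of changes: H2AX and H2AZ2 with both elements, H2AZ1 as the paralogue of H2AZ2, H1-10 as the gene with the lowest log2 fold change, and MACROH2A1 as the gene whose groups overlapped. They are written 5′ to 3′ on the gene's strand up to the base before the start, and capitals mark the CHR and the CCAAT boxes, which read ATTGG where they lie on the opposite strand.
H2AX, chr11:119095466-119095715, minus strand: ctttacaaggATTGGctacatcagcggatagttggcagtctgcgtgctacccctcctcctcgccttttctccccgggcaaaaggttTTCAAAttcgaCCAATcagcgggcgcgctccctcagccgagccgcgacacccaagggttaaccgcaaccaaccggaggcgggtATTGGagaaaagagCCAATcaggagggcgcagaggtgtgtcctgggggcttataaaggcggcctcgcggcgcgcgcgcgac
H2AZ2, chr7:44848088-44848337, minus strand: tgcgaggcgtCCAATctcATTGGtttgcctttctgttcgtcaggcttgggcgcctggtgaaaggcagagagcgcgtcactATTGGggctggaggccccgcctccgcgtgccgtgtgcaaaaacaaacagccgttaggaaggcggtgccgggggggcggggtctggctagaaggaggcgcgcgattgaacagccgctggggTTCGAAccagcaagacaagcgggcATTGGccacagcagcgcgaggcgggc
H2AZ1, chr4:99950276-99950525, minus strand: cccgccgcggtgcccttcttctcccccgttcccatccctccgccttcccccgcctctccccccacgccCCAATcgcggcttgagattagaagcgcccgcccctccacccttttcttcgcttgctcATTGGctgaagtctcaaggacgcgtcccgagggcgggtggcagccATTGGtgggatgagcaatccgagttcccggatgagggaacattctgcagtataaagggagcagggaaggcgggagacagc
H1-10, chr3:129316287-129316536, minus strand: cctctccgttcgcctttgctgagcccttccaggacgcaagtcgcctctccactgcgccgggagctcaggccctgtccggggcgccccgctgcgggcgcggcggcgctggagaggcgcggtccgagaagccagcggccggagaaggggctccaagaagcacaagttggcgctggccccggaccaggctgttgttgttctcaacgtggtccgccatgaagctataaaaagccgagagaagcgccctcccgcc
MACROH2A1, chr5:135399232-135399481, minus strand: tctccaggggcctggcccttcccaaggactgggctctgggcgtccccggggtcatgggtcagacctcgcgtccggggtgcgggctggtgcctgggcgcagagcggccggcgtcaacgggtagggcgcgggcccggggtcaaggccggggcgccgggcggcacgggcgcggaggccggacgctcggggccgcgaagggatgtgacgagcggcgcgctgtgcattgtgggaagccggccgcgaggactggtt

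The 3′ end of the genes was examined too. H2AX is known to give rise to both a short stem-loop mRNA and a longer polyadenylated mRNA. Only the histone type of stem-loop was searched for. Its stem opens with GGYY (Y being C or T), and its loop opens with T and holds no G. Other hairpins were not searched for, so their absence from the other variants was not tested. A stem of 6 paired bases around a loop of 4, searched for downstream of the stop codon, was found in 1 of the 9 variants, H2AX, as
H2AX stem-loop: GGCCCTTTTAAGGGCC
It lay 50 bases after the stop codon and 1024 bases before the end of the annotated transcript. These libraries read the ends of polyadenylated RNA, so the stem-loop form of H2AX, and the sum of both forms, was not measured. In the clustered histone genes, 65 of 67 had such a stem-loop, at a median of 5 bases from the transcript end.

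The clustered histone genes were set beside the variants. They were taken by symbol (H1-1 to H1-6, and H2AC, H2BC, H3C or H4C with a number), which takes in H4C16, H2BC26 and H2AC25, named like them but outside the main clusters. Of 67 with a row in the table, 21 had 0 counts in every library and 21 had enough counts to be tested. Of these, 11 were lower and 1 was higher, beside 25.7% called in either direction over all genes tested. Their median log2 fold change was −1.24. That median moved with single libraries, for instance to −0.65 without abemaciclib replicate 3, −0.68 without abemaciclib replicate 1 and −0.82 without DMSO replicate 3. H2AC14, an H2A gene, averaged 82.5 ± 21.4 CPM with DMSO and 8.64 ± 1.97 CPM with abemaciclib (log2 fold change −3.24, adjusted p = 1.17e-12). H2AC21 averaged 12.8 ± 1.65 and 0.928 ± 0.992 CPM (adjusted p = 5.55e-06). H2AC25, the tested gene from outside the main clusters, is among those called lower (22.1 ± 4.40 and 13.4 ± 1.68 CPM, log2 fold change −0.72, adjusted p = 0.0269), and did not pass with DESeq2 (adjusted p = 0.0808). H1-5, a linker histone gene, held 62, 56 and 79 counts with DMSO and 1, 0 and 0 with abemaciclib. H2BC12, an H2B gene, was the higher one, at 5.81 ± 1.77 and 11.9 ± 1.70 CPM (log2 fold change 1.02, adjusted p = 0.0282), a call that was lost with DESeq2 (adjusted p = 0.0684). H4C3 and H1-2, chosen after their values were seen for their high counts, went from 3184 ± 342 to 436 ± 33.4 CPM and from 672 ± 119 to 97.0 ± 8.46 CPM. These libraries read only the polyadenylated part of such transcripts.

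The list of H2A.Z exchange holds chaperones and remodellers that place or remove H2A.Z. Of 24 genes, 5 were lower and none was higher, beside 25.7% called in either direction over all genes tested, and the list's median log2 fold change was −0.32. ANP32E, the chaperone that takes H2A.Z out of nucleosomes, averaged 50.5 ± 7.96 CPM with DMSO and 14.3 ± 3.41 CPM with abemaciclib (−1.83, adjusted p = 7.35e-08). INO80, the ATPase of a remodeller reported to remove H2A.Z, changed by −0.92 on the log2 scale (adjusted p = 0.00128). KAT5, the acetyltransferase of the TIP60 complex that works with H2A.Z exchange, changed by −0.71 (adjusted p = 0.000176).

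Genes of H3.3 deposition moved in both directions. Of 7 tested, 3 were higher and 1 was lower, beside 25.7% called in either direction over all genes tested. Their median was 0.07. ATRX, which with DAXX places H3.3 at telomeres and repeats, averaged 244.0 ± 12.3 and 318.8 ± 40.4 CPM (log2 fold change 0.39, adjusted p = 0.00597). UBN2 and CABIN1, parts of the HIRA complex, changed by 0.40 each (adjusted p = 0.0428 and 0.0266), and neither passed with DESeq2 (adjusted p = 0.0918 and 0.0527). DEK, a chromatin protein that acts as an H3.3 chaperone, averaged 305.2 ± 21.5 and 96.7 ± 10.2 CPM (−1.66, adjusted p = 1.26e-12). HIRA itself, with 4 to 19 counts per library, was not tested.

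Among 11 tested genes of H2A.X phosphorylation and its readers, 4 were lower and 1 was higher, with a median of 0.04. The share called in either direction over all genes tested was 25.7%. MDC1, which binds phosphorylated H2A.X, changed by −0.72 (adjusted p = 0.00817). RNF168, the ubiquitin ligase that acts downstream of MDC1, changed by −0.66 (adjusted p = 0.00596), and BAZ1B, a kinase of a H2A.X tyrosine, by −0.41 (adjusted p = 0.00373). TP53BP1, a reader of damaged chromatin, was the higher one, with 82.3 ± 3.66 and 107.4 ± 8.44 CPM (0.38, adjusted p = 0.0183). No gene of the list was called higher without DMSO replicate 1, DMSO replicate 2 or abemaciclib replicate 1. RNA levels say nothing of the phosphorylation of H2A.X itself.

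The replication-coupled histone chaperones had 9 of 14 lower and none higher, beside 25.7% called in either direction over all genes tested. Their median was −0.72. HJURP, the chaperone of CENP-A, works outside S phase but is counted in this list. It averaged 38.8 ± 1.83 CPM with DMSO and 2.92 ± 0.433 CPM with abemaciclib (−3.73, adjusted p = 7.06e-12). ASF1B, the chaperone that hands H3 and H4 to the replication fork, averaged 76.5 ± 11.2 and 23.1 ± 3.41 CPM (−1.73, adjusted p = 4.22e-09). MMS22L, which handles new histones at stalled forks, changed by −1.59 on the log2 scale at low counts (adjusted p = 0.0132).

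The general histone chaperones had 7 of 11 lower and 1 higher, beside 25.7% called in either direction over all genes tested. Their median was −0.35. ANP32B changed by −0.91 (adjusted p = 4.63e-08), SSRP1, a subunit of FACT, by −0.87 (adjusted p = 3.55e-07) and SET, an inhibitor of histone acetylation, by −0.48 (adjusted p = 0.000125). SUPT6H, the elongation factor SPT6, was the higher one (0.36, adjusted p = 0.0417), and that call was lost with DESeq2 (adjusted p = 0.0787) and with any 1 library left out.

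Genes that process stem-loop histone mRNA had 3 of 13 lower and none higher, beside 25.7% called in either direction over all genes tested. Their median was −0.04. SNRPB, a core protein of small nuclear ribonucleoproteins, changed by −0.82 (adjusted p = 5.51e-07). SLBP, which binds the histone stem-loop, changed by −0.72 (adjusted p = 0.00670). NPAT, the activator of the clustered histone genes, changed by −0.70 (adjusted p = 0.0260), and did not pass with DESeq2 (adjusted p = 0.0784).

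**Figure D4:**
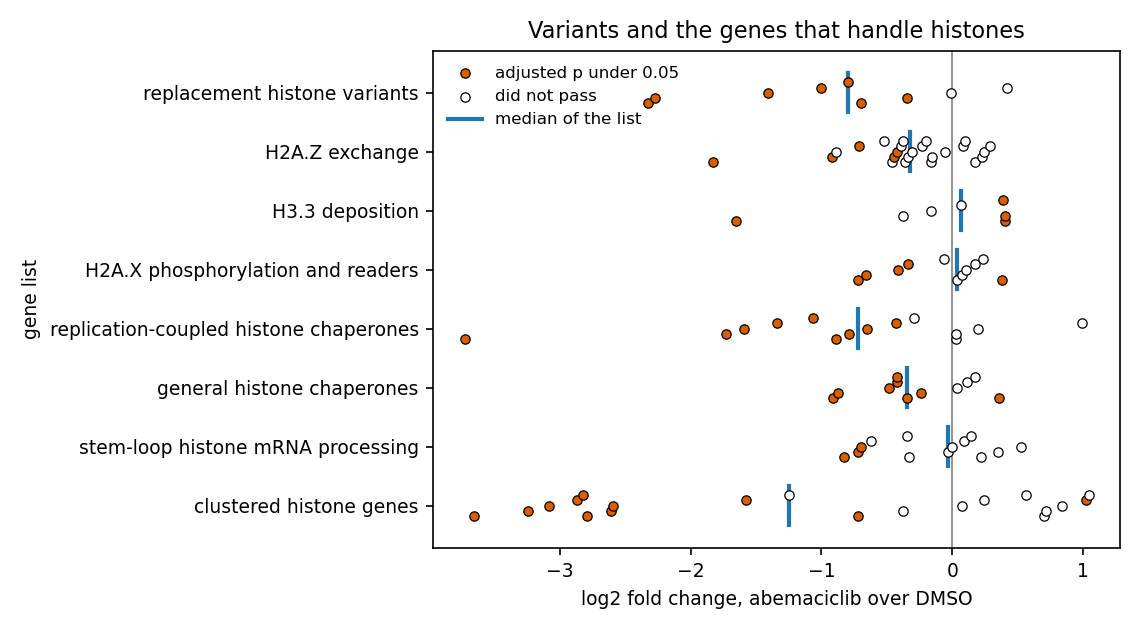
Log2 fold change, abemaciclib over DMSO, of each tested gene of the variants and of 7 related lists, with 1 point per gene and a blue line at the median of the list; H1-5, with 1 count over the 3 abemaciclib libraries, enters its list's median but is not drawn. The variants (median −0.79) and the replication-coupled chaperones (−0.72) lie mostly left of 0, while the called genes of H3.3 deposition lie on both sides.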

How the data were processed

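RNA of 6 libraries (3′ mRNA kit) was analysed. Reads had been trimmed, mapped to hg38 (STAR 2.7.5b) and assigned to GENCODE genes (featureCounts 2.0.1) by the authors, with versions as in the submitters' processing notes, and the values they deposited are raw counts. The strand setting and the treatment of reads with several matches are not given in the sources used here. Symbols were matched by Ensembl identifier for 60401 of 60656 genes.

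The test was edgeR's (4.0.16, in R 4.3.3) quasi-likelihood F test after filterByExpr and TMM scaling, and it was tested on simulated data first. CPM were scaled by TMM, and the SE is the log2 fold change over the square root of F. DESeq2 1.42.0, other scalings and filters, a replicate block and each library left out were alternatives. Total counts of 3317860 to 4013156 per library limit precision for genes of few counts. Transcript ends were searched with minimap2 2.31, and coordinates come from a later GENCODE release on GRCh38.

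The members and lists were chosen with earlier results of these data known. Named genes are the 9 members, MKI67 and, in each list, up to 3 with the largest rise and up to 3 with the largest fall among those called, apart from those stated as chosen later. A list of other histone genes is not reported here.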

Additional observations from a re-analysis of the deposited data

How the results depend on the processing

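Under DESeq2, other scalings, other filters and the replicate block, 7 variants were called lower and none higher, with a median of −0.81 to −0.79. With 1 library left out, 6 or 7 were lower, with a median of −0.85 to −0.77. The exception was H2AJ, given above. The log2 fold change of MACROH2A1, which was not called, was above 0 without DMSO replicate 1 (0.02), abemaciclib replicate 1 (0.01) or abemaciclib replicate 2 (0.026), with a range of −0.058 to 0.026. The ratios of variant pairs kept their sign in 32 of 32 alternatives. With 1 library left out, only the size of the difference was taken, and no p.

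In the related lists, 43 of 252 alternative values moved, and the cause was not tested unless named. With DESeq2, H3.3 deposition had 1 gene higher and a median of 0.17, general chaperones 0 higher and clustered histone genes 0 higher. General chaperones also had 0 higher with library totals only, with no filter and with the replicate block. With no filter, the median of H3.3 deposition was 0.17. With a minimum of 10 counts per library, clustered histone genes had 2 higher, 6 lower and a median of −0.56.

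With 1 library left out, the ranges were 1 to 2 higher and a median of 0.020 to 0.24 for H3.3 deposition; a median of −0.34 to −0.23 for H2A.Z exchange; 0 to 1 higher and a median of −0.096 to 0.092 for H2A.X phosphorylation and readers; a median of −0.92 to −0.60 for replication-coupled chaperones; 0 higher for general chaperones; 0 to 1 higher and a median of −0.26 to 0.067 for stem-loop mRNA processing; and 0 to 2 higher and a median of −1.51 to −0.65 for clustered histone genes.

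Replicate numbers did not pair the libraries: same-numbered libraries had correlations of −0.0434, 0.00705 and −0.0893 between their deviations. The replicate block left 7 variants lower and, over all genes, 1139 higher and 1280 lower in place of 1354 and 1442. Genes of few counts, such as H3-3A and MACROH2A2, are those where depth limits the comparison.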
